A study of Mus musculus with 1111 samples.

Results

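The large ribosomal subunit proteins are the proteins that, with 3 ribosomal RNAs, build the part of the cytoplasmic ribosome that joins amino acids into a chain. Their genes were chosen by name alone, as every gene called Rpl followed by a number, with or without further letters, plus Rplp0, Rplp1 and Rplp2, leaving out names that end in -ps. This gave 52 of the 35583 genes in the deposited tables, and no measured value entered the choice. Reads were found for 50 of them, and 49 had a mean of at least 20 CPM. CPM are the reads of a gene scaled to the total of reads in genes of each set of cells, that total being adjusted by a TMM factor. These 49 are the members compared below. Rpl3l and Rpl10l, relatives of Rpl3 and Rpl10, had no read in any cell, which allows a share of cells with a read of up to 0.867% in no-signal cells, 0.855% in low-signal cells and 1.03% in high-signal cells. Rpl39l, a relative of Rpl39, stayed at or under 2.85 CPM in every set of cells.

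The cells were microglia, the resident macrophages of the brain, taken from mice 3 months of age. The design text describes the cells of all groups, no-signal cells included, as taken from mice injected with plasma proteins tagged with the amine-reactive dye NHS-Atto647N 20 h before isolation. Cells were put singly into wells according to their plasma signal, as plasma none, plasma low or plasma high (no-signal, low-signal and high-signal cells below), and 1 Smart-seq2 library, which covers transcripts along their length, was made per cell. Each group held cells of TH numbers 1, 2 and 3, a number in the labels whose meaning is not stated. Neither genotype, strain, sex nor animal is given in the labels used here, so each group is 1 sample of cells. No test between groups is possible on that footing, and the SD given below is over the 3 TH numbers, not over animals. Plasma none lay in well columns 1 to 8, plasma low in 9 to 16 and plasma high in 17 to 23, or to 24 in TH 3. Group and plate column therefore cannot be told apart.

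The ribosome's large subunit is assembled in the nucleolus from its proteins and ribosomal RNA and is exported to the cytoplasm, where it pairs with the small subunit. Its proteins are made in roughly matched amounts, and their mRNAs are among the classical terminal oligopyrimidine mRNAs, which begin with a run of C and T (U in the RNA) right at the transcription start and are translated under control of the mTOR pathway. Free Rpl5 and Rpl11, bound to 5S ribosomal RNA, also hold back Mdm2, which links subunit assembly to p53. In microglia, as in other macrophages, these mRNAs serve as a general readout of the protein synthesis machinery.

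A RefSeq start (GRCm38.p6) was matched for 40 members. Within 50 bases on either side of a start, the letters CTTTC stood on the sense strand in 62.5% of these members and in 14.56% of 27025 genes with a start, while on the opposite strand they stood in 12.5% and 13.82%. The longer CTTTCC, which contains CTTTC, was found on the sense strand in 42.5% of members and 5.43% of genes, and on the opposite strand in 2.5% and 5.13%. A run of at least 8 C or T on the sense strand was found in 87.5% of members and 39.27% of genes, against 35% and 41.14% on the opposite strand. The 30 bases around the start are shown for the member with the highest ratio between high-signal and no-signal cells (Rpl15), for Rpl27a and Rpl7a, which lead between high-signal and low-signal cells, for the most abundant member (Rpl4), and for 3 members that stood below the family (Rpl34, Rpl12 and Rpl5). They are written 5′ to 3′ on the strand of the gene, with the longest run of C or T in capitals.
Rpl15: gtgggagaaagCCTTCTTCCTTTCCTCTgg
Rpl27a: gacttcgtgagCTCCTCCCTTTTCCCTTTC
Rpl7a: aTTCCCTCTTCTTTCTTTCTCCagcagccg
Rpl4: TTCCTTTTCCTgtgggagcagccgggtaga
Rpl34: CCTTCCTTTTCCTCTTCCggggacggtgct
Rpl12: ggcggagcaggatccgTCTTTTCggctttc
Rpl5: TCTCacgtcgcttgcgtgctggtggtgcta
The windows lie at chr14:18270972-18271001 on the minus strand for Rpl15, chr7:109519180-109519209 on the plus strand for Rpl27a and chr2:26910792-26910821 on the plus strand for Rpl7a. Those of the others lie at chr9:64173372-64173401 on the plus strand for Rpl4, chr3:130730323-130730352 on the minus strand for Rpl34, chr2:32961697-32961726 on the plus strand for Rpl12 and chr5:107900513-107900542 on the plus strand for Rpl5. Within the window the run reached 21 bases in Rpl7a, 19 in Rpl27a, 18 in Rpl34 and 17 in Rpl15. It reached 11 in Rpl4, 7 in Rpl12 and 4 in Rpl5. The runs of Rpl27a, Rpl34, Rpl4 and Rpl5 touch the edge of the window and may go on beyond it. CTTTC stood within 50 bases of the start in all of these members but Rpl34. Rpl34 has another annotated start nearby, where the longest run was 8 bases, so that its window depends on the start taken. Over all members with a start, the median log2 ratio of high-signal to no-signal cells was 0.29 in the 24 compared ones with CTTTC and 0.35 in the 13 compared ones without.

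Of 1111 labelled cells, 1045 had a column of counts and 987 passed with at least 50000 reads and 500 genes. Of these, 35.1% were no-signal, 35.6% low-signal and 29.4% high-signal cells. Summed by group and TH number, they made 9 sets of 21309816 to 49323522 reads. The median reads per cell over each group were 207429, 229931 and 267143 and the median genes per cell 1708, 1994 and 1943 for no-signal, low-signal and high-signal cells. The 8 microglial markers were present in every set (summed 46285 to 55453 CPM), the 5 neutrophil and 5 lymphocyte markers were at 0, and summed oligodendrocyte markers reached 21.2 to 68.9 CPM in no-signal cells, 28.6 to 60.9 in low-signal cells and 56.4 to 83.4 in high-signal cells, with 4 of 5 reaching 5 CPM in a set. Summed neuron markers reached 58.1 CPM in 1 high-signal set, in which 1 of 5 markers, Snap25, reached 5 CPM, and at most 4.88 in the sets of no-signal and low-signal cells. The mitochondrial share of reads per cell (median) was 0.604 ± 0.0558%, 0.819 ± 0.0851% and 0.975 ± 0.205% (SD, n = 3 TH numbers) in no-signal, low-signal and high-signal cells, and its part in the results below was not tested. Summed markers of border-associated macrophages reached 0 to 1.34 CPM in no-signal, 2.64 to 22.2 in low-signal and 0 to 4.50 in high-signal sets, with 1 of 5, Mrc1, reaching 5 CPM, and astrocyte markers 1.62 to 5.40, 1.07 to 27.8 and 0 to 4.95 CPM, with 2 of 5, Slc1a2 and Aldoc, reaching it. Monocyte markers reached 0.248 to 7.25, 0 to 8.42 and 0 to 7.57 CPM in the same order, with 1 of 5, Ccr2, reaching 5 CPM. Endothelial markers reached 4.68 to 29.5, 14.4 to 22.9 and 14.2 to 23.8 CPM, with 1 of 5, Pecam1, reaching it. The part of any of these markers of other cells was not tested either.

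The large-subunit genes were a larger share of the RNA in cells with plasma signal. Their summed level was 5569 ± 563 CPM in no-signal cells, 6222 ± 641 in low-signal cells and 7035 ± 687 in high-signal cells (SD, n = 3 TH numbers). As a share of all reads in genes they made up 0.632%, 0.523% and 0.535% in no-signal cells for TH 1, 2 and 3, 0.719%, 0.558% and 0.607% in low-signal cells, and 0.767%, 0.652% and 0.653% in high-signal cells. Within every TH number the order was none, low, high, although the ranges of the groups overlap across TH numbers, with TH 1 the highest in each group. The log2 ratio of the summed level was 0.34 ± 0.03 for high-signal against no-signal cells (0.33, 0.37 and 0.31 for TH 1, 2 and 3), which is 1.26-fold. It was 0.16 ± 0.01 for low-signal against no-signal cells (1.12-fold) and 0.18 ± 0.04 for high-signal against low-signal cells (1.13-fold). These 3 comparisons share their groups and are not independent of each other.

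Single cells spread far wider than the groups differ. The family's share of a cell's reads ran from 0.163% to 2.49% in no-signal cells, from 0.209% to 1.81% in low-signal cells and from 0.255% to 2.49% in high-signal cells. The medians of the cells, averaged over TH numbers, were 0.528 ± 0.0466%, 0.596 ± 0.0720% and 0.662 ± 0.0693%. The groups therefore differ in the centre of largely overlapping distributions.

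**Figure D1:**
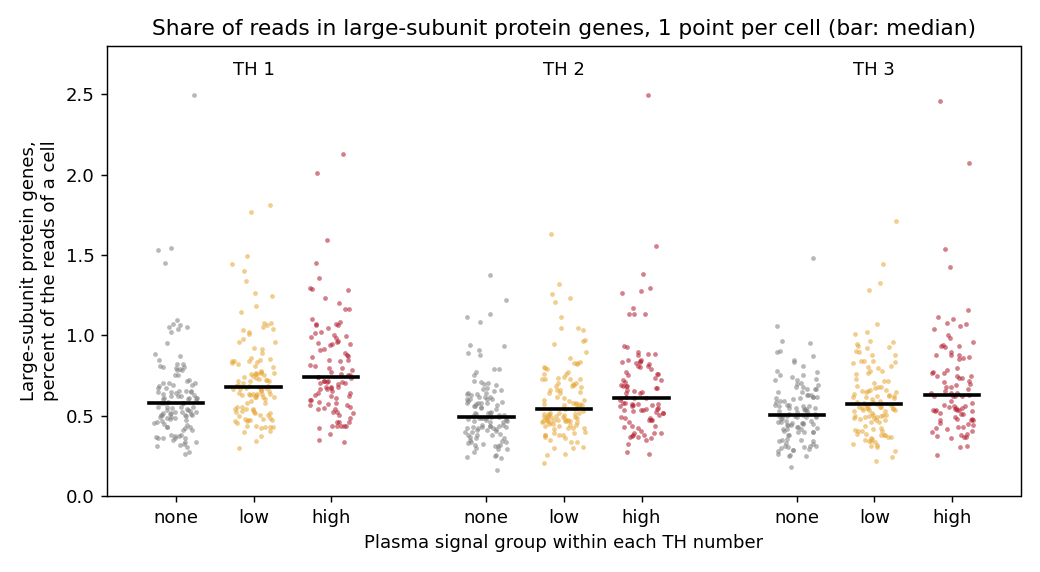
Percent of the reads in genes of each passing cell that fell on large-subunit protein genes (vertical axis), 1 point per cell, by plasma signal group within TH numbers 1 to 3; black bars are medians. The medians go up from none to low to high within each TH number, while the cells of all groups overlap.

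Depth was made equal by thinning every passing cell to 50000 reads at random. At that depth a no-signal cell held reads from a median of 26 ± 1.73 of the 52 members (28, 25 and 25 for TH 1, 2 and 3), a low-signal cell from 30.8 ± 2.75 (33.5, 28 and 31), and a high-signal cell from 32.3 ± 2.52 (35, 30 and 32). Without thinning the values were 28.3, 33.5 and 35. Low-signal and high-signal cells thus differed by less than either differed from no-signal cells, and the sets of no-signal cells lay at or below all sets of the other groups.

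The 49 members differed in level by a wide margin. Per kilobase of transcript, the highest mean levels over the 9 sets were those of Rpl4 (457 CPM per kb), whose protein lines the exit tunnel for the new chain, Rplp1 (416), a protein of the stalk that recruits elongation factors, Rpl32 (335.9), Rpl10 (315.97), a late-joining protein next to the catalytic centre, and Rpl41 (302.9), a very short protein at a contact with the small subunit. Below them, apart from Rpl3l, Rpl10l and Rpl39l (1.41 CPM per kb), the lowest were Rpl12 (45.9), at the base of the same stalk, and Rpl28 (53.7). Levels per kilobase depend on the transcript taken as the length: over all annotated exons Rplp1 (416 CPM per exonic kb) came before Rpl4 (350).

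Most members leaned the way of the family, by different amounts. Between high-signal and no-signal cells, 44 of 49 members had a mean log2 ratio above 0 and 5 below, with a median of 0.30 (range -0.51 to 0.86) where all 10445 genes with at least 5 CPM had 0.03. Counted as called when the mean differed by at least 25% upward, or by the same factor downward, and the sign was the same in 3 of 3 TH numbers, 20 members were higher and 1 was lower. Of all 6951 genes with at least 20 CPM, 14.5% were higher and 12% lower by the same rule. With the sign alone, 29 members were higher in 3 of 3 TH numbers (17.2% of all genes) and 1 was lower (13.9% of all genes).

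**Figure D2:**
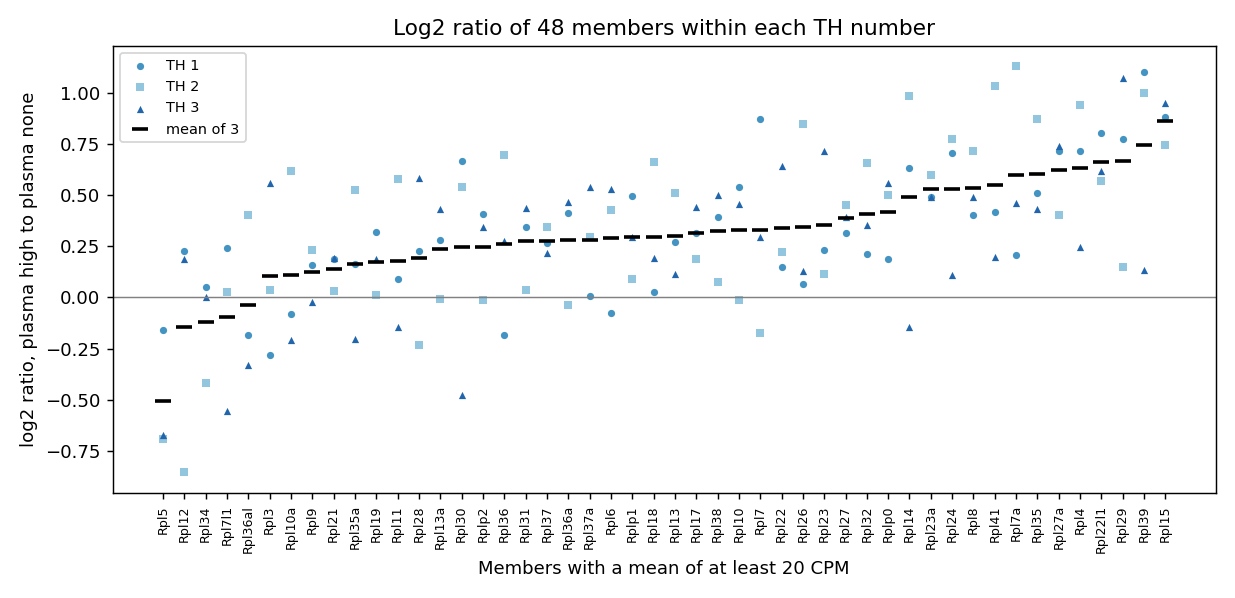
Log2 ratio of high-signal (plasma high) to no-signal (plasma none) cells (vertical axis) for 48 of the members with a mean of at least 20 CPM, in order of their mean; points are TH numbers 1, 2 and 3 and black bars their mean. Of the 48 means, 43 lie above 0, and Rpl5 is the member with all 3 points below 0.

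Rpl15, a core protein needed early in large-subunit assembly, had the highest ratio. It read 63.6, 35 and 43.9 CPM in no-signal cells for TH 1, 2 and 3, 66.9, 52.4 and 69.9 in low-signal cells, and 118.05, 59.4 and 85.8 in high-signal cells. The high-signal value was above the no-signal value in each TH number, while the ranges of the groups overlap across them. The log2 ratio of high-signal to no-signal cells was 0.86 ± 0.10. Pooled over TH numbers, without the TMM factor, 3717 reads in no-signal cells gave 46.03 CPM (exact Poisson 95% interval 44.6 to 47.5). In high-signal cells 8527 reads gave 83.2 CPM (81.5 to 85.03). The intervals cover counting error only. A single cell gave 14.9% of the Rpl15 reads of high-signal cells, and with all cells thinned to 50000 reads the ratio was 0.65 ± 0.24.

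Rpl39, a small protein of the exit tunnel, read 27.8, 14.2 and 32.3 CPM in no-signal cells, 50.8, 33.4 and 40.1 in low-signal cells, and 60.8, 29.4 and 35.5 in high-signal cells. All 3 sets of low-signal cells were above all 3 of no-signal cells. Its log2 ratio was 0.75 ± 0.53 for high-signal cells and 0.78 ± 0.44 for low-signal cells, both against no-signal cells, and 1.05 for high-signal cells without TH 3. High-signal and low-signal cells were close to each other (-0.03 ± 0.25).

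Rpl4, the most abundant member, read 461, 496 and 685 CPM in no-signal cells, 777, 780 and 606 in low-signal cells, and 758, 954 and 813 in high-signal cells. Every high-signal set exceeded every no-signal set, and the log2 ratio between them was 0.63 ± 0.35. In low-signal cells, TH 1 and 2 were above no-signal cells and TH 3 was below.

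Rpl27a and Rpl7a, both building blocks of the subunit's body, followed another course in the mean, with low-signal cells near no-signal cells. Rpl27a read 62.7, 54.5 and 61.3 CPM in no-signal cells, 50.7, 61.9 and 53.9 in low-signal cells, and 103.7, 72.5 and 103.2 in high-signal cells. Rpl7a read 161.7, 73.99 and 123.4 CPM in no-signal cells, 118.8, 100.99 and 119.03 in low-signal cells, and 186.7, 163.15 and 170.3 in high-signal cells. For both, each set of high-signal cells was above each set of the other groups. The log2 ratio of high-signal to low-signal cells was 0.72 ± 0.43 for Rpl27a and 0.62 ± 0.09 for Rpl7a. That of low-signal to no-signal cells was -0.10 ± 0.25 and -0.02 ± 0.44. For TH 1, 2 and 3 the latter was -0.30, 0.18 and -0.18 for Rpl27a and -0.44, 0.44 and -0.05 for Rpl7a, so its sign differed between TH numbers.

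The other members with ratios near the top were Rpl29, an outer protein of the subunit, at 0.66 ± 0.47, and Rpl22l1, a relative of Rpl22 that can take its place, at 0.66 ± 0.12. The ratio of Rpl29 was 0.77, 0.15 and 1.07 for TH 1, 2 and 3, and stood at 0.92 without TH 2. Rpl22l1 was read in few cells (23.6% of high-signal cells at 50000 reads), and its ratio was 0.40 ± 0.57 in cells with at least 100000 reads and 1000 genes.

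**Figure D3:**
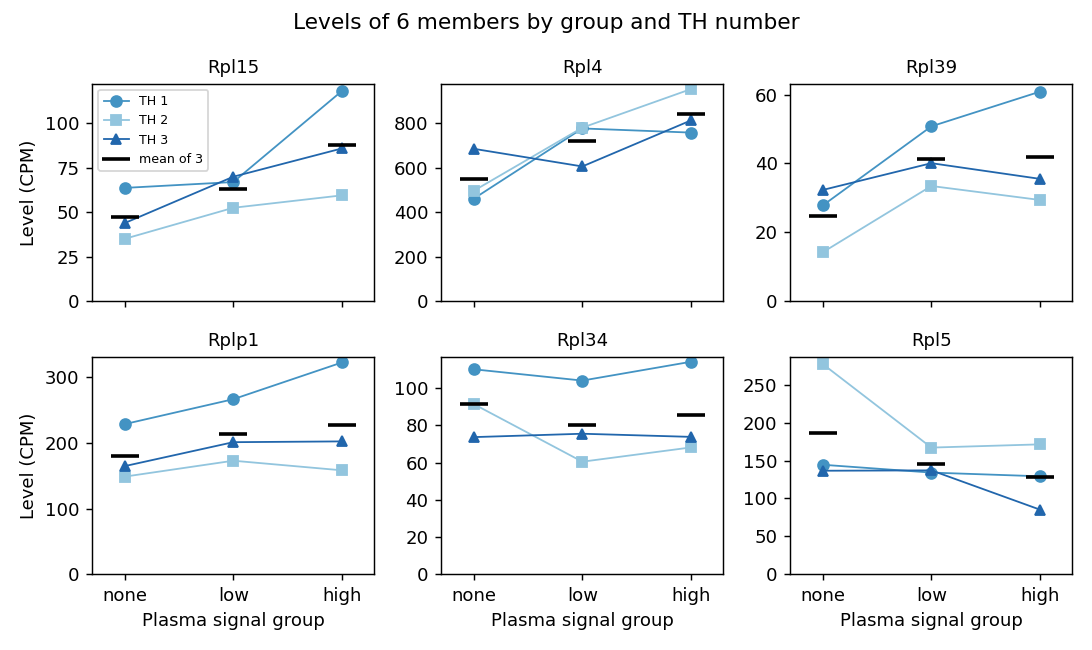
Level in CPM (vertical axes start at 0 and differ in scale) of Rpl15, Rpl4, Rpl39, Rplp1, Rpl34 and Rpl5 by plasma signal group; lines join the groups within TH numbers 1, 2 and 3 and black bars are means. Rpl15 and Rpl4 are higher in high-signal than in no-signal cells in all 3, Rpl34 has no common direction, and Rpl5 is lower.

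Grouped by place in the subunit, the members near the exit tunnel (8 members, Rpl4, Rpl17, Rpl19, Rpl23a, Rpl26, Rpl31, Rpl35 and Rpl39) had a median log2 ratio of high-signal to no-signal cells of 0.44, from 0.17 for Rpl19 to 0.75 for Rpl39. Rpl35, at the exit, read 49.3, 39.5 and 52.3 CPM in no-signal cells and 70.8, 73.1 and 71 in high-signal cells, and Rpl23a, its neighbour, had one of the most even ratios, 0.53 ± 0.06. The 4 members that contact the small subunit had a median of 0.44, with Rpl41 at 0.55 ± 0.44, Rpl24 at 0.53 ± 0.37, Rpl23 at 0.35 ± 0.32 and Rpl30 at 0.24 ± 0.63, the last with TH 3 at -0.47. The 4 members near the catalytic centre or of the L1 stalk, which guides spent tRNA out, had a median of 0.22, with Rpl8 at 0.54 ± 0.16, Rpl10 at 0.33 ± 0.30, Rpl10a at 0.11 ± 0.45 and Rpl3 at 0.10 ± 0.43. Of these, Rpl8 was counted as higher. Rpl10a was at -0.15 without TH 2, and Rpl3 at -0.12 without TH 3.

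In the mean, the members of the stalk that recruits elongation factors went with the family, except Rpl12. Rplp0, the anchor of the stalk, had a ratio of 0.42 ± 0.20 and was counted as higher. Rplp1 had 0.29 ± 0.20 and Rplp2 0.25 ± 0.23, both proteins that hang on Rplp0. Rpl12 at the base had -0.15 ± 0.61, with TH 2 alone below 0. The pair that carries 5S ribosomal RNA differed in the mean, with Rpl11 at 0.18 ± 0.37 and Rpl5 at -0.51 ± 0.30. Rpl11 was at -0.03 without TH 2. Differences between these small groups of members were not tested.

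With all reads, Rpl5 was the member that went against the family in every TH number. It read 144.5, 277.4 and 136.6 CPM in no-signal cells, 134.2, 167.2 and 137.08 in low-signal cells, and 129.3, 171.4 and 85.3 in high-signal cells. The high-signal value was below the no-signal value within each TH number (-0.16, -0.69 and -0.67), though the ranges across TH numbers overlap. Leaving out TH 1, 2 or 3 gave -0.68, -0.42 and -0.43. With all cells thinned to 50000 reads the mean was -0.44 ± 0.60, a spread wider than the ratio. Pooled without the TMM factor, 15853 reads gave 196.3 CPM in no-signal cells (exact Poisson 95% interval 193.3 to 199.4). In high-signal cells 13745 reads gave 134.2 CPM (131.96 to 136.5). These intervals, too, cover counting error only, and a single cell gave 9.65% of the Rpl5 reads of no-signal cells.

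The share of cells with a read of Rpl5 went the other way. At 50000 reads it was 38.99 ± 4.45% in no-signal cells, 46.7 ± 10.2% in low-signal cells and 52.1 ± 11.6% in high-signal cells, and the high-signal share was above the no-signal share in each TH number (65.3% against 43.97%, 46.9% against 35.4%, and 44.1% against 37.6%). Where a cell had a read, it had 24.5 ± 10.2 of them in no-signal cells, 17.3 ± 4.12 in low-signal cells and 13 ± 2.96 in high-signal cells. At 50000 reads, high-signal cells thus had fewer reads of Rpl5 per cell with a read, not fewer such cells. The level of Rpl5 given above came from all reads, so these values are not its parts. Rpl5 lies on chromosome 5 (GRCm38, 107900502 to 107909005, plus strand) with 3 small nucleolar RNA genes inside it, and Dipk1a (Fam69a in the annotation) overlaps it on the opposite strand. Dipk1a read 77.95 ± 45.7, 44.8 ± 2.08 and 59.2 ± 8.23 CPM in no-signal, low-signal and high-signal cells. Whether counting used strand is not given in the sources used here, so reads of the overlap cannot be assigned to one of the genes with certainty. In addition, 93.8% of the stretches of 50 bases in the Rpl5 transcript occur in transcripts of other genes, 14 of them pseudogenes, and how reads with several matches were counted is not given either.

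The other 4 members with a mean below 0 did not keep the sign in 3 of 3 TH numbers. Rpl12 was at 0.23, -0.85 and 0.19 for TH 1, 2 and 3. A single cell gave 27.1% of the Rpl12 reads of no-signal cells, and the mean was 0.21 without TH 2 and 0.08 without each gene's top cell. Rpl34, a small protein of the subunit, read 110.06, 91.4 and 73.6 CPM in no-signal cells and 114.09, 68.1 and 73.8 in high-signal cells, so that TH 2 alone was lower, with a mean of -0.12 ± 0.26. It was 0.03 without TH 2 and 0.17 ± 0.17 with all cells thinned to 50000 reads. Rpl7l1, a relative of Rpl7, was at -0.09 ± 0.41, and was 0.14 without TH 3. Rpl36al, a second copy of Rpl36a, was at -0.04 ± 0.39, and was 0.04 without TH 1 and 0.11 without TH 3. For all but Rpl5, then, the direction with all reads depended on the set of wells.

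Counted by cells, the family was more uniform than by level. At 50000 reads, the share of cells with a read was higher in high-signal cells than in no-signal cells for 49 of 49 members in the mean, by a median of 11.9 percentage points (3.80 to 21.9), where all 6951 genes had a median of 1.90. In 3 of 3 TH numbers it was higher for 43 members, where 31.2% of all genes were, and lower for 0, where 5.38% of all genes were. The difference was widest for Rpl29, whose share was 35.2 ± 6.96% in no-signal cells and 57.1 ± 15.3% in high-signal cells, and narrowest for Rpl7l1, at 20.5 ± 2.26% and 24.3 ± 5.18%. Rpl34, with a mean level ratio below 0, was read in 56.1 ± 5.41%, 63.8 ± 11.2% and 70.5 ± 8.42% of the cells of no-signal, low-signal and high-signal cells.

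Reads per cell with a read differed less. The median ratio of high-signal to no-signal cells over the 49 members was 1.08. For 11 members it was above 1 in 3 of 3 TH numbers, where 5.29% of all genes were, and for 5 members it was below, where 30.6% of all genes were. The 5 were Rpl5, Rpl34, Rpl8, Rpl10a and Rpl7l1. Rpl4 had the most reads per cell with a read, 42.05 ± 4.63 in no-signal cells and 52.5 ± 5.70 in high-signal cells.

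**Figure D4:**
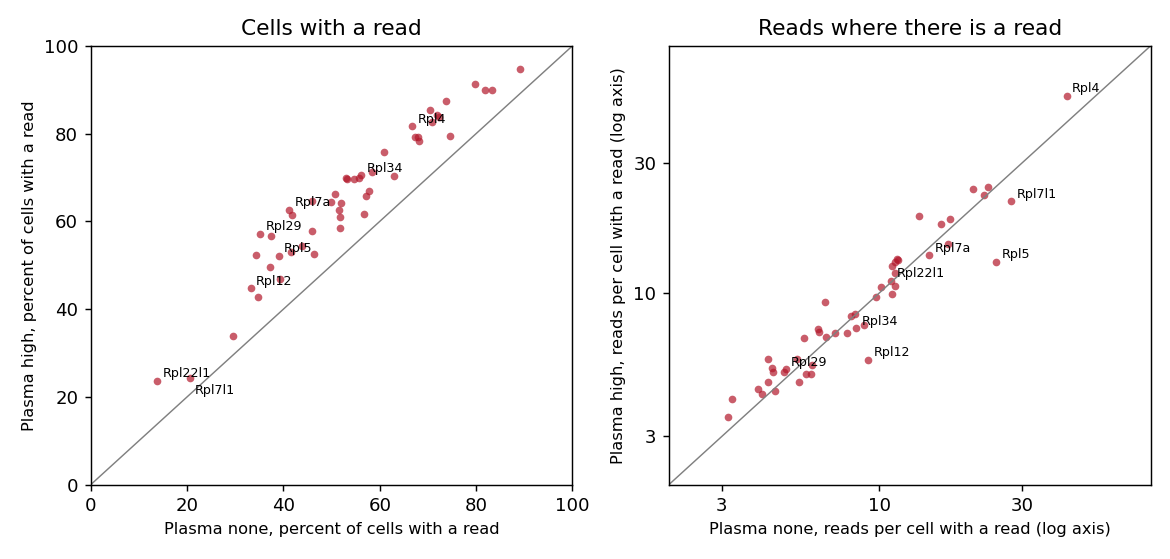
Left, percent of cells with a read in plasma none (horizontal axis) and plasma high (vertical axis) for the 49 members; right, reads per cell with a read, on log axes; each point is the mean over 3 TH numbers with all cells at 50000 reads, and the grey line marks equal values. On the left all 49 points lie above the line, while on the right Rpl5 (24.5 and 13 reads) and Rpl12 lie below it and Rpl4 above.

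Between low-signal and no-signal cells the median ratio over members was 0.16 (all genes 0.03), with 40 members above 0 and 9 below. By the rule of 25% 6 members were higher, where 11.3% of all genes were, and 0 were lower, where 9.47% of all genes were. The 6 were Rpl39, Rpl22l1, Rpl15, Rpl29, Rpl26 and Rpl24, which as a share of the members is close to the share of all genes. Without the fold, 22 members were higher in 3 of 3 TH numbers (15.3% of all genes) and 0 lower (11.9% of all genes). At the head stood Rpl39 at 0.78 ± 0.44, Rpl22l1 at 0.51 ± 0.20 and Rpl15 at 0.43 ± 0.32, and at the foot Rpl5 at -0.28 ± 0.39, Rpl34 at -0.21 ± 0.33 and Rpl3 at -0.13 ± 0.29. The share of cells with a read was higher in low-signal cells for 48 of 49 members in the mean, by a median of 9.15 points (all genes 2.32). It was higher in 3 of 3 TH numbers for 37 members, where 34.3% of all genes were, and lower for 0, where 4.09% of all genes were.

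Between high-signal and low-signal cells the median ratio was 0.13 (all genes -0.01), with 41 members above 0. By the rule of 25% 6 members were higher (10.2% of all genes) and 0 lower (10.3% of all genes). The 6 were Rpl27a, Rpl7a, Rpl15, Rpl8, Rpl27 and Rpl36a, again close to the share of all genes. With the sign alone 15 were higher (13.2% of all genes) and 0 lower (13% of all genes). The lowest were Rpl36al at -0.26 ± 0.25, Rpl5 at -0.23 ± 0.39 and Rpl12 at -0.20 ± 0.46. Rpl36a, which makes nearly the same protein as Rpl36al, was at 0.35 ± 0.38, and the difference between the copies was not tested. The share of cells with a read differed by a median of 2.84 points (all genes -0.305), was higher in 3 of 3 TH numbers for 13 members (11.4% of all genes) and lower for 2, Rpl15 and Rpl7l1 (15.3% of all genes). Rpl15 was thus higher in level in high-signal cells than in low-signal cells while read in no larger share of cells, 60.4 ± 7.86% in low-signal cells and 57.8 ± 5.64% in high-signal cells.

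What a member shares with other genes was also compared, as a description. Of the 49 members, 35 had at least 50% of their 50-base stretches in transcripts of other genes, and their median ratio of high-signal to no-signal cells was 0.29, against 0.41 in the other 14. The 20 members with a small nucleolar RNA gene inside had 0.31 and the other 29 had 0.29. Across the 49 members the ratio had a Spearman correlation of -0.44 with exonic length, of 0.02 with the transcript length used for levels per kilobase, of -0.16 with the percent of 50-base stretches shared and of -0.02 with mean level. These points share their libraries, and no p is given. Within sets, the member whose reads followed the rest of the family most closely from cell to cell was Rpl13 (mean Spearman correlation 0.30 over 9 sets), and Rpl5 had 0.02, weak values in sparse counts.

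Related lists were set beside the family, with counts by the same rule, by which 14.5% of all genes were higher and 12% lower. Of the small-subunit proteins, 32 were compared and had a median log2 ratio of high-signal to no-signal cells of 0.34, with 17 higher and 0 lower by the rule of 25%, close to the values of the large-subunit genes. The lowest of them was Rps13 at -0.16 ± 0.23. Of 14 other terminal oligopyrimidine mRNAs, which code for translation factors and the like, 4 were higher and 1 lower, with a median of 0.19. The share counted as higher was above that of all genes, in a short list. Their summed level was 4240 ± 545 CPM in no-signal, 4790 ± 160 in low-signal and 5436 ± 548 in high-signal cells. Of 38 mitochondrial large-subunit proteins, which serve the separate ribosome of mitochondria, 5 were higher and 4 lower, with a median of 0.11. Both counts of the mitochondrial list are near the share of all genes. Of 26 factors that assemble the large subunit, 1 was higher and 2 lower, with a median of -0.18. The one higher was Nmd3, the adapter that takes the large subunit out of the nucleus, at 1.36 ± 0.67, and Nip7, a factor for pre-rRNA processing, had the lowest ratio at -1.22 ± 0.48.

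**Figure D5:**
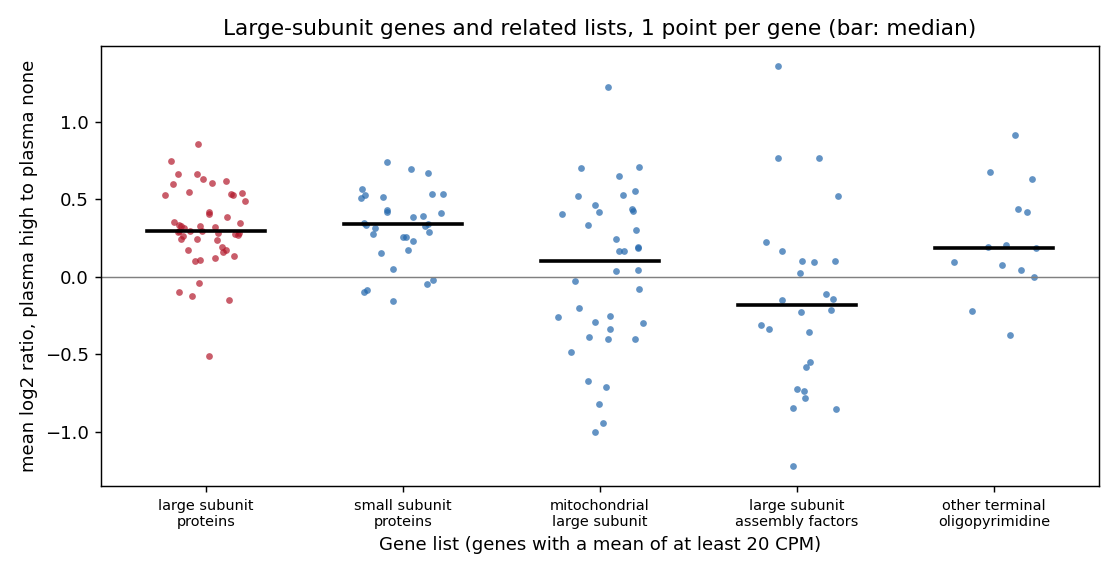
Mean log2 ratio of high-signal to no-signal cells (vertical axis), 1 point per gene with a mean of at least 20 CPM, for 5 gene lists; black bars are medians. The large-subunit and small-subunit lists sit mostly above 0 with medians of 0.30 and 0.34, while mitochondrial large-subunit proteins and assembly factors spread to both sides.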

How the data were processed

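Smart-seq2 libraries of single mouse microglia were deposited as 3 tables, 1 per TH number, holding counts of reads per gene and cell. In 1 column of TH 3 the deposited values include 2 that are not whole, so the column was taken to hold expected counts and rounded. Per the file headers, the TH 2 and TH 3 columns carry a note on keeping top hits only, and the TH 1 columns carry none. Ratios were therefore taken within TH numbers. The submitters' processing notes name bcl2fastq, Trim Galore, STAR 2.5.3a, Seurat and the mm10 build, without roles. Which tool counted the reads, and whether by strand, is not given in the sources used here.

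Passing cells had at least 50000 reads and 500 genes, and wells held single sorted cells, so no doublet caller was run. Counts were summed by group and TH number and scaled to CPM with TMM factors (edgeR 4.0.16, R 4.3.3). Log2 ratios used a pseudocount of 1 CPM and were averaged over 3 TH numbers, so that they understate changes of low genes. Calls needed a mean of 20 CPM, medians over all genes 5 CPM. Shares of cells came from cells thinned to 50000 reads (seed 7). Tables were joined to GENCODE M21 for lengths and overlaps. DESeq2 1.42.0 gave size factors as an alternative. Members named are the 6 highest and 6 lowest high-signal to no-signal ratios, the 3 highest and 3 lowest of the other comparisons, the 5 highest and 5 lowest levels per kilobase, members against the family in 3 of 3 TH numbers, members by role, the lowest ratio of the small-subunit list, and the highest and lowest of the assembly list. Some results that this rule covers are not reported here. Rpl13, Rpl27 and Rpl36a were named after their values were seen. The members and gene lists were chosen with earlier results of these data known.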

Additional observations from a re-analysis of the deposited data

How the results depend on the processing

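The family's log2 ratio of high-signal to no-signal cells (0.34) was 0.30 with library size alone, 0.30 in cells with at least 100000 reads and 1000 genes, 0.39 with cells thinned to 50000 reads and 0.40 without the outermost wells, and the members' median (0.30) was 0.39 thinned and 0.38 without the outermost wells. For low-signal against no-signal cells the family (0.16) was 0.14 with DESeq2 size factors, 0.13 in the deeper cells, 0.20 thinned, 0.19 with each gene's top cell removed and 0.18 without the outermost wells. The members' median (0.16) was 0.21 without top cells, 0.22 without the outermost wells, and 0.14 to 0.20 with 1 TH number left out. Members counted as higher there (6) were 11 without the outermost wells and 8 to 10 with 1 TH number left out, where 2 signs have to match instead of 3. For high-signal against low-signal cells the family (0.18) was 0.14 without top cells, and the 6 members counted as higher were 9 to 10 with 1 TH number left out. Members with a read per cell were 28.3 without thinning and 27.8 at 100000 reads in no-signal cells (26), and 35 without thinning in high-signal cells (32.3). Members counted as higher in high-signal against no-signal cells (20) ranged from 16 to 27. Without the replicate block, that is with the TH numbers summed, the family ratio was 0.35, the members' median 0.32 and the count 24. Apart from these 23, the family values moved by less than the spread over TH numbers, or, for counts, by no more than 1.5 times, and no direction of a family value reversed. For single members, 45 ratios were recomputed, those of the members named for size or role. Of 675 values, 9 moved by more, among them Rpl34 (0.17 thinned), Rpl27a (0.84 without the outermost wells), Rpl31 (0.52 thinned) and Rpl22l1 (0.40 to 0.89), and 26 values of 12 ratios took the other sign, each of a ratio smaller than its SD. Shallow cells limit shares of cells to what 50000 reads can show, and 66 labelled cells were not analysed here.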
